A study of Homo sapiens with 18 samples.

Results

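The clade B serpins described here were 10 genes, SERPINB1 to SERPINB9 and SERPINB13. They were found by gene symbol among the 40916 symbols of the count tables, and all 10 had counts. Messenger RNA was counted in 6 groups of 3 biological replicates, 18 libraries in all, from cultures of MCF10A, of HCT116 or of both. MCF10A is a non-transformed human mammary epithelial line, here carrying a GFP-tagged histone H2B. HCT116 comes from a human colorectal carcinoma; the cells used carried no label and were described as p53-null. MCF10A was grown in DMEM/F12 with horse serum, EGF, hydrocortisone, cholera toxin and insulin, and HCT116 in McCoy's medium with fetal bovine serum, so line and medium cannot be told apart. The mixed cultures were described as equal parts of both lines, and their medium is not given in the sources used here. Cultures received 10 Gy (IR) or no irradiation (NIR). RNA was taken on day 2 according to the sample titles, but 72 h after irradiation according to the series' design text. No group was stated to be a clone or a pool.

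Serpins are proteins that mostly act as suicide inhibitors of proteases: the protease cuts an exposed loop, and the serpin then snaps into a new fold and holds the enzyme in an inactive complex. Clade B members lack a classical secretion signal and work largely inside cells, where they are known to guard against proteases leaking from lysosomes and granules. Several are abundant in stratified and glandular epithelia. SERPINB5 (maspin) is the exception in function, since it has the serpin fold but is not known to inhibit proteases.

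Library totals ran from 25737818 to 40839835 counts. Levels are counts scaled to a library total of 1000000 (CPM), as mean ± SD over 3 libraries. The counts per gene do not check the genotype described for HCT116. Of 10 basal mammary marker genes, 10 had lower levels in HCT116 NIR libraries than in those of MCF10A NIR. All 5 of the 8 intestinal markers that could be tested were higher. In HCT116 NIR the intestinal marker CEACAM5 was at 0, VIL1 at 0.177 CPM and LGR5 at 0.172 CPM. Markers near 0 in a line could be tested only through the other line, so these counts are a description. Over all genes tested, 38.7% were higher and 36.1% lower in HCT116 NIR.

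The members lie in 2 clusters, a shorter one on chromosome 6 and a longer one on chromosome 18 (RefSeq annotation of GRCh38.p14, the build the submitters' processing notes name). The chromosome 6 cluster spans 139.5 kb and holds SERPINB1 (chr6:2832332-2841863), SERPINB9 (chr6:2887270-2903309) and SERPINB6 (chr6:2948159-2971793), all on the minus strand. The chromosome 18 cluster spans 542.8 kb. On its plus strand are SERPINB5 (chr18:63476958-63505085), SERPINB13 (chr18:63587343-63599192), SERPINB7 (chr18:63753057-63805370), SERPINB2 (chr18:63887705-63903888) and SERPINB8 (chr18:63970081-64019779). On its minus strand are SERPINB4 (chr18:63637259-63644256) and SERPINB3 (chr18:63655197-63661893).

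The 250 bases upstream of annotated starts (RefSeq, GRCh38.p14) are shown for 3 members with unlike patterns in these data: SERPINB5, read in both lines and higher after irradiation in each, SERPINB2, read mainly in MCF10A, and SERPINB9, read in HCT116. Capitals mark matches to TATAAA, to GGGCGG (the letters of a GC box) or to TGANTCA (N for any base), searched on both strands. All 10 members matched an entry, with 15 annotated starts.
SERPINB5, chr18:63476708-63476957, plus strand: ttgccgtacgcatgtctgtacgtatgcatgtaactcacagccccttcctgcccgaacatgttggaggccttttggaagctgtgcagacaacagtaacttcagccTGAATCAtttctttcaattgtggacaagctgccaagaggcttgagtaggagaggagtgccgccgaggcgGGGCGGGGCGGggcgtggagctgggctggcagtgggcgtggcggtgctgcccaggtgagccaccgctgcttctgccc
SERPINB2, chr18:63887455-63887704, plus strand: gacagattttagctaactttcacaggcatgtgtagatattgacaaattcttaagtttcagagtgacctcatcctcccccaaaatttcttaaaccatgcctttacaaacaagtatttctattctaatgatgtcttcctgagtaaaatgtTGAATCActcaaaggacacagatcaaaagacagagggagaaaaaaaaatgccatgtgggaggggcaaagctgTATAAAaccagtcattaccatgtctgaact
SERPINB9, chr6:2903310-2903559, minus strand: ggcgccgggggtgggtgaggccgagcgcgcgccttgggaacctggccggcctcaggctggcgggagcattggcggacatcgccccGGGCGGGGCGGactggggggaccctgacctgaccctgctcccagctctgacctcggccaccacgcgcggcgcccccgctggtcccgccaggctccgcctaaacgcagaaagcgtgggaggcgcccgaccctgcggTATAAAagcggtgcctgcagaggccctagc

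TATAAA began 30 bases before the start in both SERPINB2 and SERPINB9, while the SERPINB5 window held none. The TGANTCA match began 146 bases before the SERPINB5 start and 102 bases before the SERPINB2 start. GGGCGG occurred as a pair of matches sharing 1 base in SERPINB5 and in SERPINB9. G and C made up 60% of the SERPINB5 window, 37.2% of the SERPINB2 window and 74.4% of the SERPINB9 window, against a median of 58.0% over all promoters. Among 35116 promoter windows of the same length, TATAAA occurred in 10.7%, GGGCGG in 42.6% and TGANTCA in 6.57%. Among the members, TGANTCA occurred upstream of a start of SERPINB2, SERPINB5, SERPINB7, SERPINB8 and SERPINB13, all on chromosome 18. A match is only a description of these letters.

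SERPINB3 and SERPINB4 are shown because their counts can be confused. They are neighbouring copies whose coding sequences (GENCODE v29) were 95.2% identical, with a longest identical run of 129 bases, and reads were 150 bases long. Their upstream windows were 98.8% identical. Capitals mark the 3 differing bases, G126A, G201A and C228T, with the SERPINB3 base first and positions counted from 1 at the 5′ end of the window.
SERPINB3, chr18:63661894-63662143, minus strand: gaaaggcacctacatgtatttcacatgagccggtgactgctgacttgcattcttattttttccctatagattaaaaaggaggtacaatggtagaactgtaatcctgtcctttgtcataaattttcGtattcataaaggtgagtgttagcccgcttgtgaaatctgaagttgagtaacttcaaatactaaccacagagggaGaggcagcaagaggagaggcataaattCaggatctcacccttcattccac
SERPINB4, chr18:63644257-63644506, minus strand: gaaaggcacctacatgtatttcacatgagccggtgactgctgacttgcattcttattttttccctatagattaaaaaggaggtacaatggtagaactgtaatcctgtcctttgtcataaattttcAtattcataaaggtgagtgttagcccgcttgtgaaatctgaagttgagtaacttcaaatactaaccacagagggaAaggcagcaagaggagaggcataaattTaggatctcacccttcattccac
Neither window held a match to the motifs whose letters are given above. How reads that fit both genes were counted is not given in the sources used here, so the split between SERPINB3 and SERPINB4 is uncertain. The next most alike coding pairs, SERPINB8 with SERPINB9 and SERPINB6 with SERPINB9, were each 73.2% identical.

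**Figure D1:**
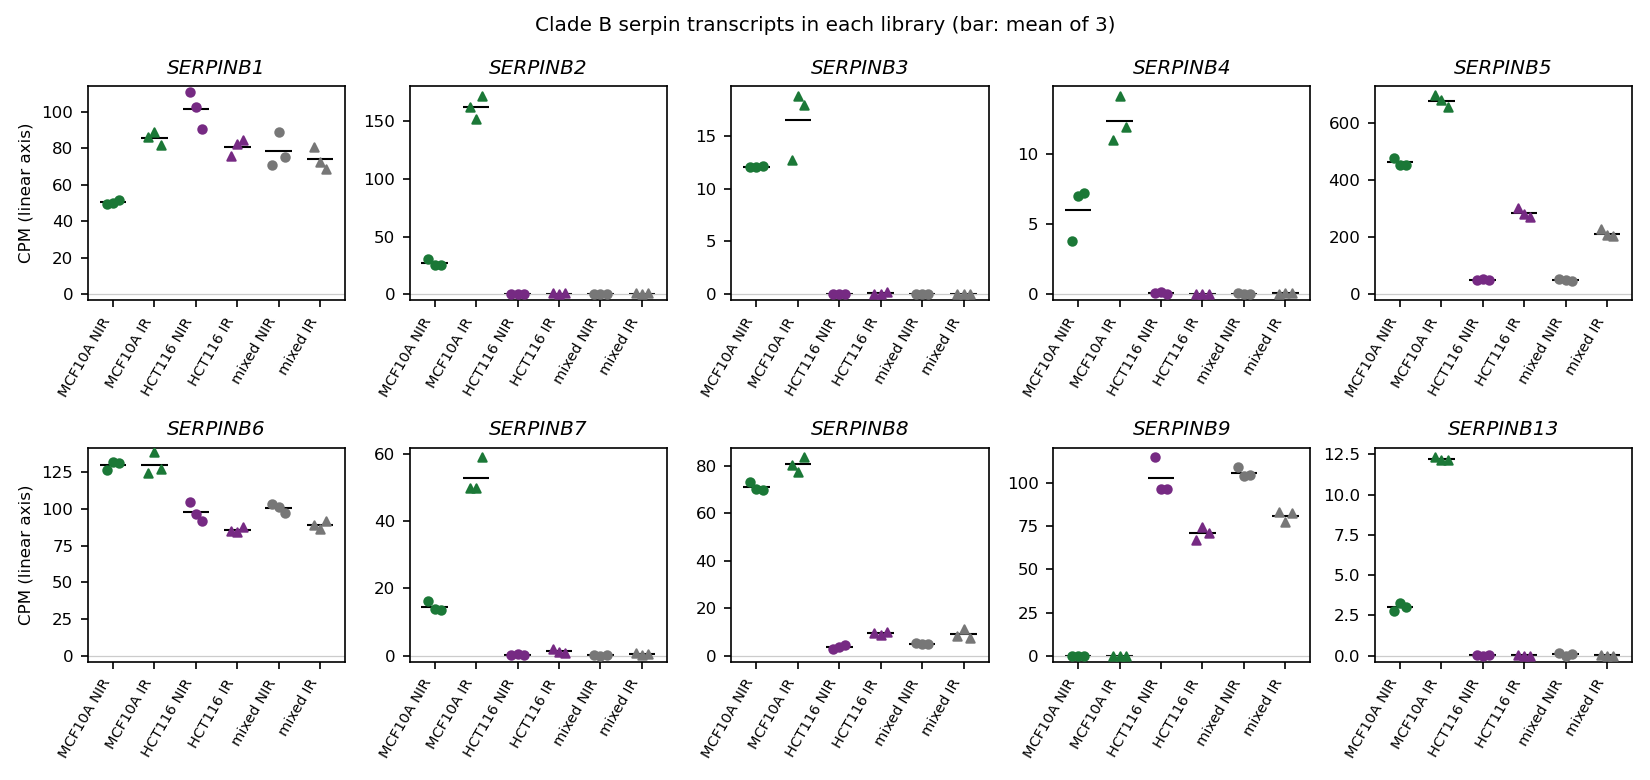
CPM of each member (linear axes, 1 panel per gene) in each of the 18 libraries by group, with circles for NIR, triangles for IR and bars for the mean of 3. SERPINB2, SERPINB3, SERPINB4, SERPINB7 and SERPINB13 sit near 0 outside MCF10A, SERPINB9 sits near 0 in MCF10A, and SERPINB5 stands higher in IR than in NIR in every kind of culture.

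The first comparison asked how the unirradiated lines differed. Against MCF10A NIR, HCT116 NIR was higher for 2 members, SERPINB1 and SERPINB9, and lower for the other 8. Of all 16568 genes tested, 74.8% were called in either direction, 38.7% higher and 36.1% lower, so a call by itself sets no member apart. The median log2 difference was -5.18 over the members and 0.05 over all genes tested. SERPINB2, SERPINB3, SERPINB4, SERPINB7, SERPINB9 and SERPINB13 passed the filter on low counts only through the line where they were high, so these counts and this median are a description. Tests here and below were edgeR's quasi-likelihood test with Benjamini-Hochberg adjustment over all genes tested, 2-sided, and a call is an adjusted p under 0.05.

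SERPINB9, the inhibitor of granzyme B, had 2 counts in all in MCF10A NIR, both in replicate 2. In HCT116 NIR its levels were 115, 96.9 and 96.8 CPM in replicates 1 to 3. No MCF10A library came near the lowest HCT116 library. The ratio of pooled counts was 5111, with an exact 95% interval of 1415 to 42210. These intervals, and the lower bounds given below against groups without counts, cover counting error only, and low counts were mostly even (68.3% of values from 1 to 10). If read mates were counted one by one, those lower bounds would be too high by a factor of 2, and the intervals would be too narrow.

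SERPINB1, an inhibitor of neutrophil elastase, cathepsin G and proteinase 3, was at 49.5, 50.0 and 51.9 CPM in MCF10A NIR and at 111, 103 and 90.8 CPM in HCT116 NIR. The groups did not overlap, and the mean was 2.01-fold higher in HCT116 (log2 fold change 0.81, SE 0.0696, adjusted p = 7.2e-09). SERPINB6, which inhibits cathepsin G among other serine proteases, was at 126, 132 and 131 CPM in MCF10A NIR and at 105, 96.5 and 92.0 CPM in HCT116 NIR. It was the mildest of the 8 members lower in HCT116 (log2 fold change -0.61, SE 0.0578, adjusted p = 2.8e-08).

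SERPINB2 (PAI-2), an inhibitor of the plasminogen activators PLAU and PLAT, was at 30.6, 25.5 and 25.04 CPM in MCF10A NIR. It had 2 counts in all in HCT116 NIR, a ratio of 1281 with a 95% interval of 354 to 10580. SERPINB3, an inhibitor of lysosomal cysteine cathepsins, was at 12.0, 12.1 and 12.2 CPM in MCF10A NIR and had no counts in HCT116 NIR. Against a floor of 3 counts over the 3 libraries it was at least 380-fold lower there. SERPINB4, which inhibits chymotrypsin-like proteases such as cathepsin G, was at 3.82, 7.02 and 7.24 CPM, with replicate 1 below the others. It had 7 counts in HCT116 NIR, a ratio of 80.7 with an interval of 38.9 to 201.5.

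SERPINB13, an inhibitor of cathepsins K and L in squamous epithelia, had 299 counts in MCF10A NIR and 4 in HCT116 NIR. Its ratio was 71.4 with an interval of 27.6 to 263.8. SERPINB7 (megsin), whose loss causes a skin keratosis, was at 16.3, 13.8 and 13.5 CPM in MCF10A NIR and at 0.231, 0.373 and 0.217 CPM in HCT116 NIR, 53.1-fold lower. SERPINB8, an inhibitor of furin, was at 73.2, 70.3 and 69.9 CPM in MCF10A NIR and at 2.86, 3.64 and 4.71 CPM in HCT116 NIR, 19.0-fold lower.

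SERPINB5 was the member with the most counts in MCF10A NIR, at 478, 453 and 452 CPM. HCT116 NIR libraries held 49.3, 52.6 and 50.9 CPM, 9.05-fold lower (log2 fold change -3.38, SE 0.0560, adjusted p = 7.6e-19). All 7 members on chromosome 18 were lower in HCT116 NIR, whereas on chromosome 6 SERPINB1 and SERPINB9 were higher and SERPINB6 was lower. Of 4 tested neighbours within 500 kb of the chromosome 18 cluster, 3 were lower and none was higher, and their log2 differences ran from -1.25 to 0.15. Of 9 tested neighbours of the chromosome 6 cluster, 3 were higher and 1 was lower, from -0.92 to 2.39. HMSD, a gene between SERPINB10 and SERPINB8, was higher in HCT116 NIR (log2 fold change 3.35).

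Next, irradiated MCF10A was set against its unirradiated control. Of the 9 members that could be tested, 8 rose, none fell, and SERPINB6 was not called. Over all 15154 genes tested, 26.2% rose and 29.2% fell, 55.4% in all. The members' median log2 fold change was 0.74, against 0.0035 over all genes tested. SERPINB9 had 2 counts in NIR and none in IR and could not be tested.

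SERPINB2 had the largest rise. Its MCF10A IR libraries stood at 162, 152 and 172 CPM against 25.04 to 30.6 CPM in NIR, with no overlap. The mean was 27.1 ± 3.10 CPM in NIR and 162 ± 10.2 CPM in IR, a 5.99-fold rise (log2 fold change 2.56, SE 0.0660, adjusted p = 7.3e-22). PLAU, the protease that SERPINB2 inhibits, rose too, to 213 ± 13.0 CPM from a control level of 77.5 ± 4.12 CPM (log2 fold change 1.44, adjusted p = 9.9e-19).

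SERPINB13 was at 2.79, 3.27 and 3.01 CPM in NIR and at 12.3, 12.2 and 12.2 CPM in IR. Those IR libraries differed from each other by less than the NIR libraries did, and the mean was 4.04-fold higher (log2 fold change 1.99, SE 0.146, adjusted p = 3.0e-12). SERPINB7 was at 49.9, 49.8 and 59.0 CPM in IR against 13.5 to 16.3 CPM in NIR, 3.63-fold higher (log2 fold change 1.84, SE 0.0880, adjusted p = 3.1e-16). Both genes are known from stratified epithelia.

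SERPINB4 was at 10.9, 14.1 and 11.9 CPM in IR against 3.82 to 7.24 CPM in NIR (log2 fold change 1.013, SE 0.171, adjusted p = 1.1e-05). SERPINB3 was at 12.7, 18.8 and 17.9 CPM in IR, with replicate 1 just above the highest NIR library at 12.2 CPM. Its log2 fold change was 0.43 (SE 0.123, adjusted p = 0.00402), and the call was lost when all 6 groups shared 1 fit (adjusted p = 0.135). The uncertain split of reads between this pair applies to both values.

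SERPINB1 was at 86.2, 88.9 and 81.6 CPM in IR against 49.5 to 51.9 CPM in NIR (log2 fold change 0.74, SE 0.0573, adjusted p = 8.9e-12). SERPINB5 was at 696, 680 and 656 CPM in IR against 452 to 478 CPM in NIR, 1.47-fold higher (log2 fold change 0.53, SE 0.0389, adjusted p = 2.7e-12). SERPINB8 was at 80.5, 77.6 and 83.7 CPM in IR against 69.9 to 73.2 CPM in NIR, a log2 fold change of 0.16 (SE 0.0539, adjusted p = 0.0139). This smallest rise was no longer called without MCF10A IR replicate 3 (adjusted p = 0.0877) or with all 6 groups in 1 fit (adjusted p = 0.23).

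SERPINB6 was at 124, 139 and 127 CPM in IR and overlapped the NIR libraries. Its log2 fold change was -0.018 (SE 0.0505, adjusted p = 0.78), and the sign turned under upper-quartile factors and under library totals alone.

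**Figure D2:**
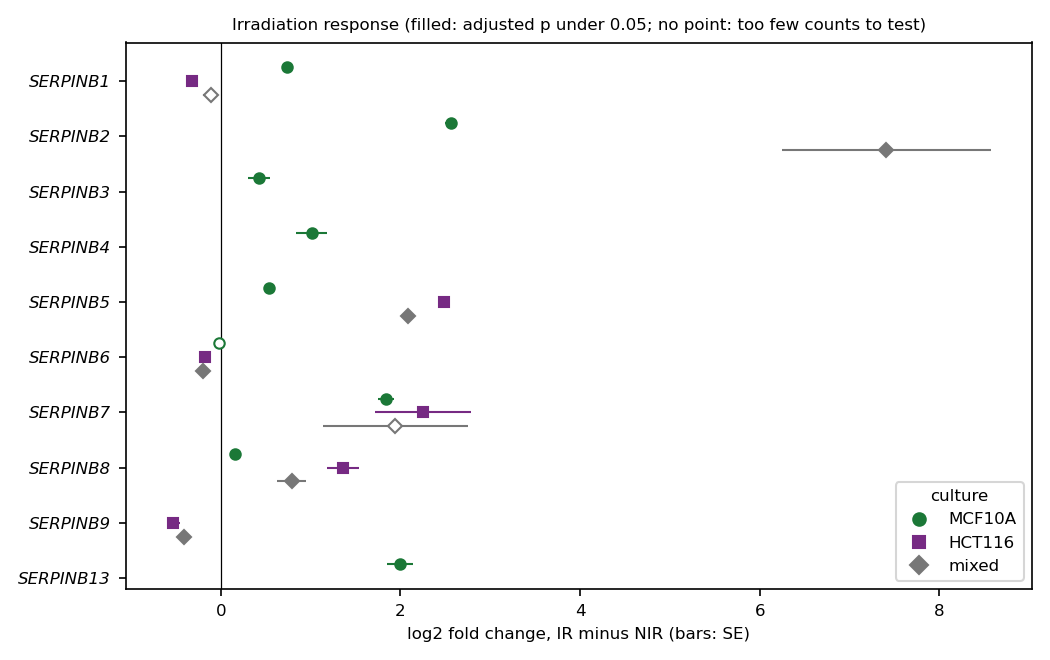
Log2 fold change of each member, IR minus NIR (horizontal axis), in MCF10A, HCT116 and mixed cultures, with bars for the SE and filled points for adjusted p under 0.05. SERPINB5 lies at 0.53 in MCF10A, 2.49 in HCT116 and 2.08 in the mixed cultures, and SERPINB1 lies on opposite sides of 0 in MCF10A and HCT116. The mixed SERPINB2 point has no NIR counts behind it, so its size depends on the prior count. The HCT116 SERPINB7 point passed the filter only through HCT116 IR.

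In HCT116, 6 members could be tested after irradiation: SERPINB5 and SERPINB8 rose, and SERPINB1, SERPINB6 and SERPINB9 fell. SERPINB7 is described apart, since it passed the filter on low counts only through HCT116 IR. The 3 that fell are those of the chromosome 6 cluster. Over all 16857 genes tested, 25.3% rose and 27.2% fell, 52.5% in all. The median log2 fold change was 0.59 over the members tested, SERPINB7 among them, and 0.0072 over all genes.

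SERPINB5 rose from 49.3, 52.6 and 50.9 CPM in HCT116 NIR to 303, 280 and 269 CPM in HCT116 IR. The groups were far apart, and the mean rose 5.58-fold, reaching 284 ± 17.5 CPM against 50.9 ± 1.63 CPM (log2 fold change 2.49, SE 0.0656, adjusted p = 2.6e-18). Irradiated HCT116 stayed below unirradiated MCF10A, whose lowest library held 452 CPM. The gap between the lines was 9.05-fold in NIR and 2.38-fold in IR.

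SERPINB8 rose from 2.86, 3.64 and 4.71 CPM to 9.38, 8.94 and 10.2 CPM, a rise of 2.54-fold (log2 fold change 1.36, SE 0.178, adjusted p = 8.3e-07). SERPINB7 went from 26 to 132 counts, at 2.13, 1.08 and 0.699 CPM in IR, all above the 3 NIR libraries and highest in replicate 1. Its log2 fold change was 2.25 (SE 0.535, adjusted p = 0.00114), a description only, given how it passed the filter. These libraries held too few SERPINB7 counts to give a close estimate.

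SERPINB9 fell: NIR libraries held 115, 96.9 and 96.8 CPM and IR libraries 67.1, 74.4 and 71.2 CPM, with no overlap (log2 fold change -0.53, SE 0.0719, adjusted p = 1.5e-06). SERPINB1 fell as well, with 111, 103 and 90.8 CPM in NIR against 75.7, 82.4 and 84.7 CPM in IR (log2 fold change -0.32, SE 0.0712, adjusted p = 6.0e-04). SERPINB6 was at 97.7 ± 6.51 CPM in NIR and 85.9 ± 1.75 CPM in IR (log2 fold change -0.18, SE 0.0636, adjusted p = 0.0214). That call was lost without HCT116 NIR replicate 1 (adjusted p = 0.107) or without HCT116 IR replicate 2 (adjusted p = 0.0663).

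The other 4 members were near 0 in HCT116 and were not tested. SERPINB2 had 2 counts in NIR and 48 in IR, at 0.640, 0.147 and 0.816 CPM, a ratio of 22.8 with a 95% interval of 5.97 to 193.5. SERPINB3 had no counts in NIR and 6 in IR, all in replicate 3. SERPINB4 had 7 and none, and SERPINB13 had 4 and 2.

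Of 9 basal mammary markers tested in HCT116, 7 rose and 1 fell after irradiation, and the defining marker TP63 was at 0 in NIR. Over all genes tested, 25.3% rose and 27.2% fell. The summed level of all 10 went from 770 to 923 CPM in NIR to 1377 to 1606 CPM in IR. ITGB4 and CAV1 made up most of that sum, with means of 477 and 286 CPM in NIR and 979 and 372 CPM in IR. KRT5, KRT14, KRT17 and KRT6A had means of 0.921 to 1.69 CPM in HCT116 IR, against 477 to 2784 CPM in MCF10A IR. VIM went from 0.965 to 0.258 CPM in HCT116. RNA of MCF10A type, estimated from line-specific genes, made up at most 0.0581% of an HCT116 NIR library and 0.123% of an HCT116 IR library. At the highest IR share, the MCF10A IR level would bring 0.832 CPM of SERPINB5, 0.0990 CPM of SERPINB8 and 0.0650 CPM of SERPINB7, each below its lowest HCT116 IR library. For SERPINB2 it would bring 0.199 CPM, which lies between the lowest HCT116 IR library and the other 2. The MCF10A-specific genes were chosen as below 1 CPM in the other HCT116 libraries of the same treatment, so these shares may be too low. The part of MCF10A RNA in the HCT116 levels was not tested.

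The line-by-irradiation term asked directly whether the responses differed. Of 10 members in the fit, the response was higher in HCT116 for SERPINB5 and SERPINB8 and lower for SERPINB1 and SERPINB6. Among all 18179 genes tested, 15.4% were higher and 21.9% lower, 37.3% in all, with a median of -0.10. That balance turned with the setting: the higher share of all calls was 41.3%, but 51.9% with no filter, 51.8% with all 6 groups in 1 fit, 52.8% to 53.9% without any 1 of the MCF10A IR libraries and 53.2% without HCT116 IR replicate 2. The SERPINB5 response was 1.88 log2 units larger in HCT116 (SE 0.0735, adjusted p = 1.1e-15), and that of SERPINB8 was 1.13 larger (SE 0.147, adjusted p = 9.6e-07). SERPINB1, which rose in MCF10A and fell in HCT116, gave -1.14 (SE 0.0926, adjusted p = 4.5e-10).

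The remaining terms were less secure. SERPINB4 gave -5.30 (SE 1.63, adjusted p = 0.0122), but it passed the filter only through MCF10A. In HCT116 it had 7 NIR counts against none in IR, so the size of this term depends on the prior count and it is not counted above. Its call was lost without HCT116 NIR replicate 2 (adjusted p = 0.0682). SERPINB6 gave -0.24 (SE 0.0810, adjusted p = 0.022), and 9 alternatives lost the call, with -0.079 without MCF10A IR replicate 2 (adjusted p = 0.517). SERPINB7, higher after irradiation in each line, gave 0.34 (SE 0.418, adjusted p = 0.577), a difference that is not measured closely. SERPINB13 gave -3.00 (adjusted p = 0.0568), SERPINB2 gave 1.64 (adjusted p = 0.215), SERPINB3 gave 3.45 (adjusted p = 0.148) and SERPINB9 gave 2.16 (adjusted p = 0.331), each with at most 48 counts in the line where it was low. SERPINB13 was called with DESeq2 (-3.11, adjusted p = 0.0395), without HCT116 IR replicate 1 (-5.52, adjusted p = 0.0109) and without HCT116 NIR replicate 2 (-3.56, adjusted p = 0.0202). SERPINB2 was called without HCT116 IR replicate 2 (2.30, adjusted p = 0.0233), and leaving out single libraries moved it from 1.06 to 4.24.

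The mixed cultures held little RNA of MCF10A type. Its share of counted RNA was 0.448% ± 0.0538 in mixed NIR and 1.25% ± 0.0645 in mixed IR (SD, n = 3 each), from 143 and 142 MCF10A-specific genes. In bulk RNA, fewer cells of a type and less RNA per cell cannot be told apart. SERPINB9, near 0 in MCF10A, was at 106 ± 3.05 CPM in mixed NIR and 81.2 ± 3.01 CPM in mixed IR.

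Of 7 members in the fit for the mixed cultures, irradiation raised SERPINB5 and SERPINB8 and lowered SERPINB6 and SERPINB9. SERPINB2 is described apart, since it passed the filter only through mixed IR. Over all 16906 genes tested, 24.0% rose and 25.4% fell, 49.4% in all. SERPINB5 was at 54.1, 48.7 and 45.4 CPM in mixed NIR and at 229, 207 and 202 CPM in mixed IR, 4.30-fold higher (log2 fold change 2.08, SE 0.0711, adjusted p = 3.2e-15). SERPINB8 was at 5.44, 4.93 and 5.03 CPM in NIR and at 8.19, 11.2 and 7.67 CPM in IR (log2 fold change 0.79, SE 0.162, adjusted p = 3.4e-04).

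SERPINB2 had no counts in any mixed NIR library and 24, 19 and 24 counts in mixed IR, at least 20.3-fold higher against the floor. The estimated share of MCF10A RNA was higher in mixed IR as well, and its part in this difference was not tested. SERPINB9 was lower in IR, at 83.2, 77.7 and 82.6 CPM against 110, 104 and 105 CPM in NIR (log2 fold change -0.41, SE 0.0603, adjusted p = 7.5e-06). SERPINB6 was lower too, at 89.0 ± 2.83 CPM against 101 ± 3.24 CPM (log2 fold change -0.20, SE 0.0598, adjusted p = 0.00748).

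Neither SERPINB1 nor SERPINB7 was called in the mixed cultures. SERPINB1 gave a log2 fold change of -0.11 (SE 0.0821, adjusted p = 0.273). SERPINB7 gave 1.94 (SE 0.805, adjusted p = 0.0506) from 12 and 54 counts, and 8 alternatives called it. SERPINB3, SERPINB4 and SERPINB13 had 1 to 9 counts per mixed group and were not tested.

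Against HCT116 alone, mixed NIR differed in 1 of 5 tested members, where 2.04% of all 16455 genes were called, 0.887% higher and 1.15% lower. SERPINB1 was at 71.0, 89.0 and 75.3 CPM in mixed NIR, below each HCT116 NIR library (log2 fold change -0.36, SE 0.0851, adjusted p = 0.0327). Leaving out a single library lost this call in 4 of 6 cases. SERPINB8 was higher in every mixed NIR library than in any HCT116 NIR library, but it was not called (log2 fold change 0.48, adjusted p = 0.279). For SERPINB8 the MCF10A share accounted for 7.90% of the weighted sum of the monoculture means, 4.04 CPM, against 5.13 ± 0.269 CPM measured.

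Mixed IR differed from HCT116 IR in 1 of 7 tested members, where 8.56% of all 17137 genes were called, 5.08% higher and 3.48% lower. SERPINB5 was lower at 213 ± 14.3 CPM against 284 ± 17.5 CPM (log2 fold change -0.43, SE 0.0572, adjusted p = 4.2e-06), with no overlap. The share-weighted sum of the monocultures was 289 CPM, so the mixed libraries lay below both single-culture levels. SERPINB9 was at 81.2 ± 3.01 CPM against 70.9 ± 3.63 CPM and was not called (log2 fold change 0.19, adjusted p = 0.0549). SERPINB7 was at 0.503 ± 0.345 CPM against 1.30 ± 0.743 CPM and was not called either (log2 fold change -1.39, adjusted p = 0.0981).

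SERPINB2 also lay below its summed level in mixed IR. Its weighted sum was 2.55 CPM, of which 79.3% would come from the MCF10A share, and the measured level was 0.617 ± 0.0948 CPM. HCT116 IR alone held 0.534 ± 0.347 CPM, and the libraries overlapped. These sums are descriptions, and the share moved with the choice of line-specific genes.

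**Figure D3:**
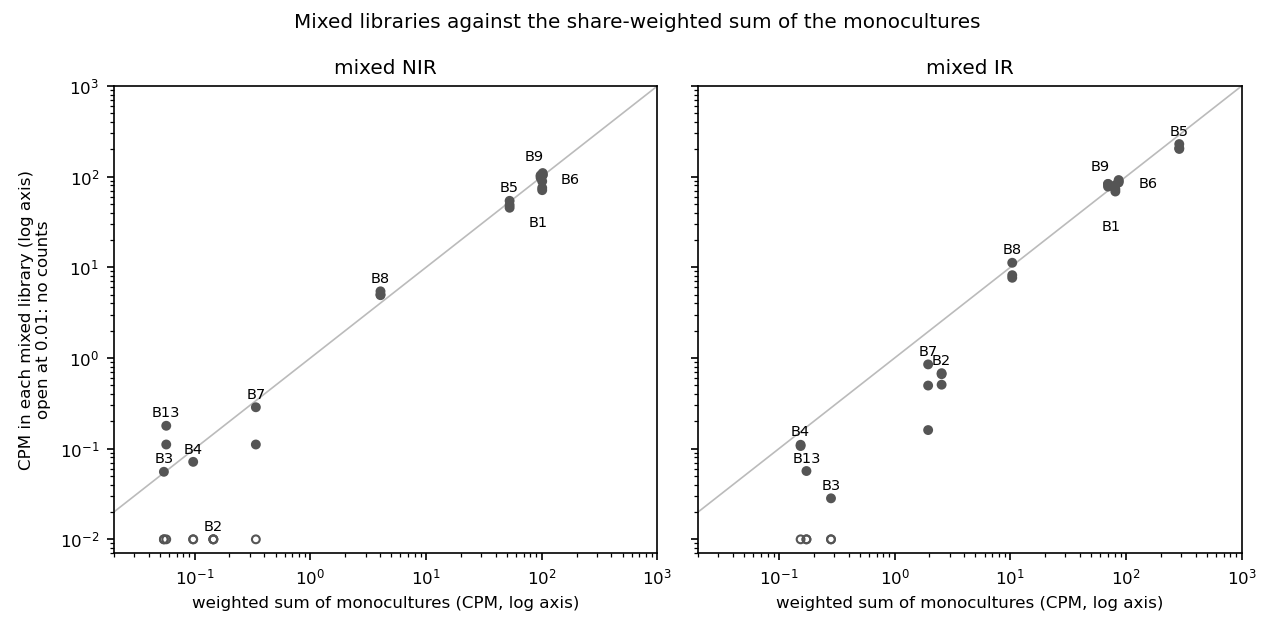
CPM of each member in each mixed library (vertical log axis) against the share-weighted sum of the monoculture means (horizontal log axis), for NIR and IR, with the line of equality. In mixed IR, SERPINB2 and SERPINB7 lie below the line at summed levels of 2.55 and 1.95 CPM, and SERPINB5 lies below it at 289 CPM; open points at the bottom had no counts.

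The levels of different members were compared per kb of the transcript with the longest coding part (GENCODE v29). In MCF10A NIR, SERPINB5 led at 166 ± 5.24 CPM per kb, 52.0% of the members' sum, followed by SERPINB6 at 83.04 ± 2.01, SERPINB8 at 20.5 ± 0.515, SERPINB1 at 19.3 ± 0.491 and SERPINB2 at 12.6 ± 1.44 CPM per kb. SERPINB3 and SERPINB7 came next and overlapped. In MCF10A IR, SERPINB2 reached 75.3 ± 4.72 CPM per kb and overlapped SERPINB6.

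In HCT116 NIR the order was SERPINB6 at 62.4 ± 4.16, SERPINB1 at 38.8 ± 3.89, SERPINB9 at 24.98 ± 2.54 and SERPINB5 at 18.3 ± 0.585 CPM per kb. In HCT116 IR, SERPINB5 was first at 102 ± 6.30 CPM per kb, 48.9% of the members' sum against 12.6% in NIR. The place of SERPINB6 depends on the length used: per kb of merged exons it ranked only 4 in each unirradiated line, since its merged exons hold 13201 bases and the transcript 1566.

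**Figure D4:**
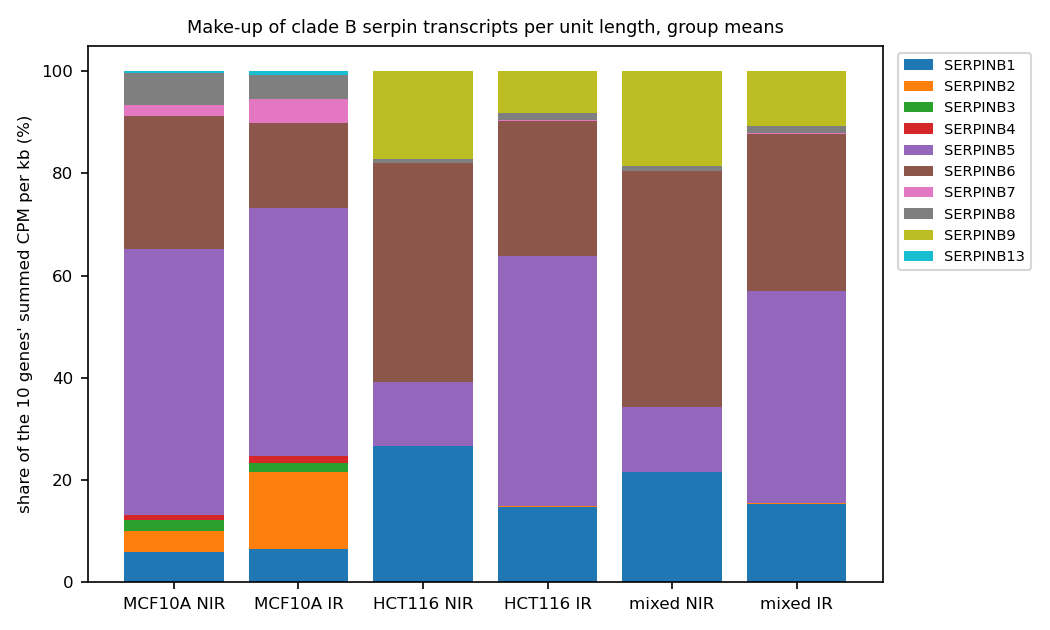
Share of each member in the summed CPM per kb of the 10 genes (vertical axis, %), as group means over 3 libraries. SERPINB5 makes up 52.0% in MCF10A NIR, 12.6% in HCT116 NIR and 48.9% in HCT116 IR, and SERPINB9 appears only in groups with HCT116 cells at this scale.

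Across all 6 groups, SERPINB5 ran from MCF10A IR through MCF10A NIR, HCT116 IR and mixed IR to HCT116 NIR and mixed NIR, and only the last 2 overlapped. SERPINB6 had the smallest ratio between its highest and lowest group means, which ran from 130.3 ± 7.91 CPM in MCF10A IR to 85.9 ± 1.75 CPM in HCT116 IR. For SERPINB1 the middle 4 groups, MCF10A IR, HCT116 IR, mixed NIR and mixed IR, each overlapped the next. Coefficients of variation within groups were at most 12.0% for SERPINB1 and 8.95% for SERPINB5.

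Genes with the most similar profiles were ranked by Pearson's r of log2(CPM + 1) over the 18 libraries among 10904 genes reaching 10 CPM. All libraries share the strong line difference, so high values are common and carry no p. SERPINB5 was most like BLCAP (r = 0.995) and SLC44A5 (r = 0.993). BLCAP was at 171 ± 5.37 and 235 ± 4.19 CPM in MCF10A NIR and IR, and at 32.4 and 100.5 CPM in HCT116 NIR and IR. SERPINB2 was most like NCSTN (r = 0.996) and ZNF528 (r = 0.995), and SERPINB7 like CAB39 (r = 0.990) and ADTRP (r = 0.989).

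SERPINB3 was most like S100A9 and S100A8 (r = 0.998 each), which encode the calprotectin subunits, and SERPINB4 like SAA2 (r = 0.996) and IL33 (r = 0.995). SERPINB13 was most like SCEL (r = 0.996), a cornified envelope gene, and TNFSF14 (r = 0.994). SERPINB8 followed TRIM29 (r = 0.995) and TMEM43 (r = 0.994), SERPINB6 followed NET1 (r = 0.985) and KLHL5 (r = 0.983), and SERPINB9 followed DIRAS1 and PDP1 (r = 0.999 each). SERPINB1 had the weakest best match, FAM110C (r = 0.943), then VAT1 (r = 0.923).

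The 3 other clade B serpins of the list, SERPINB10, SERPINB11 and SERPINB12, were close to 0. SERPINB10 alone could be tested after irradiation, and only in MCF10A, where it went from 8 to 125 counts after irradiation (log2 fold change 4.08, adjusted p = 2.1e-05). The NIR counts were all in replicate 1, and the IR libraries held 58, 39 and 28 counts. SERPINB10 thus passed the filter on low counts only through MCF10A IR. Its call is a description, and the size of its fold change depends on the prior count.

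Serpins of other clades moved in both directions. In MCF10A IR, 5 of 11 tested rose and 2 fell, with SERPINA1 (alpha-1 antitrypsin) at a log2 fold change of 0.54 and the collagen chaperone SERPINH1 at -0.53. In HCT116 IR, 3 of 10 rose and 2 fell, with SERPINA1 at 1.25 and SERPINH1 at 0.60. Between the unirradiated lines, 4 of 11 were higher and 5 lower in HCT116, and SERPINA1 gave -3.55. Of all genes tested, 55.4% were called in MCF10A IR, 52.5% in HCT116 IR and 74.8% between the lines.

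Among 18 proteases that clade B serpins are known to inhibit, 6 of 10 tested rose and 1 fell in MCF10A IR. The lysosomal protease CTSB went from 779 ± 14.2 to 1813 ± 45.2 CPM (log2 fold change 1.20), and CTSK, a target of SERPINB13, gave 0.64. In HCT116 IR, 5 of 14 rose and 4 fell. The epidermal kallikreins KLK5 and KLK7 gave log2 fold changes of 4.62 and 3.13, from 3.55 ± 0.648 to 86.1 ± 12.9 CPM and from 26.7 ± 4.89 to 233 ± 19.1 CPM, and the cathepsin CTSV fell by 1.47 on the log2 scale. GZMB, the target of SERPINB9, had no counts in HCT116 NIR or IR, and FURIN, the target of SERPINB8, gave -0.56 for HCT116 NIR against MCF10A NIR (adjusted p = 3.1e-07). Between the unirradiated lines, 6 of 15 were higher and 7 lower in HCT116. The shares called over all genes tested were 55.4% in MCF10A IR, 52.5% in HCT116 IR and 74.8% between the lines.

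Of 10 transcription factors known to act on clade B serpin genes, 5 of 9 tested rose and 2 fell in MCF10A IR, with JUN at a log2 fold change of 0.73 and RELA at 0.38. In HCT116 IR, 3 of 8 rose and 3 fell, with FOS at -1.61, ETS1 at -0.99 and STAT3 at 0.56. Between the unirradiated lines, 7 of 9 were lower in HCT116 and 1 was higher. Over all genes tested, 36.1% were lower and 38.7% higher there, and 55.4% were called in MCF10A IR and 52.5% in HCT116 IR. TP63, a transcription factor of basal epithelial cells, was at 109 ± 5.65 CPM in MCF10A NIR and at 0 in HCT116 NIR.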

How the data were processed

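Poly(A) RNA of 18 libraries was sequenced from paired ends. The authors deposited raw counts per gene symbol, 1 table per library, without normalization. Per the submitters' processing notes fastp, STAR and featureCounts were used with GRCh38; versions, annotation, and whether counting used strand are not given in the sources used here. Line and treatment were taken from the labels.

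Counts were tested with edgeR 4.0.16 in R 4.3.3 (TMM, filterByExpr, quasi-likelihood, Benjamini-Hochberg over all genes tested, only the groups compared in each fit). SE is the log2 fold change divided by the root of F. Alternatives were RLE, upper-quartile or no factors, DESeq2 1.42.0, no filter, halved counts, all 6 groups in 1 fit, a replicate block and leaving out each library. With upper-quartile factors, the median log2 difference between the unirradiated lines became 0.25 and the share of calls higher in HCT116 from 51.8% to 62.4%. In MCF10A IR that share went from 47.4% to 57.5%. On data simulated for MCF10A IR against NIR (14690 genes), 97% of genes changed 2-fold and 100% of those changed 4-fold were recovered, and 6.19% of calls were false. Only 100 genes were changed at each fold, none of them with few counts, and all genes had the same spread. These rates need not hold for the real comparison, where 55.4% of genes were called, or for members with few counts.

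The MCF10A share was a/(a + b), from the median ratios of mixed to monoculture CPM over genes with at least 20 CPM in a line and below 1 CPM throughout the libraries of the other line. Members were left out. Replicates differed by more than counting error (chi-squared per gene 2.48 to 7.55 on halved counts).

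Members and lists were chosen with earlier results of these data known. List genes are named if called, with at least 10 CPM in some group, the 3 largest absolute log2 fold changes per list and comparison. HMSD, SERPINB9P1, SERPINB10, FURIN and GZMB were named after their values were seen. Some genes of the lists are not reported here.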

Additional observations from a re-analysis of the deposited data

Results flagged for a closer look

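The responses to irradiation differed between the lines for 4 members by the interaction test, with edgeR and Benjamini-Hochberg adjustment. Over all 18179 genes tested, 37.3% were called in this test, so a call by itself sets no member apart. SERPINB5 gave a difference, HCT116 minus MCF10A, of 1.88 on the log2 scale, with all 3 irradiated libraries above all 3 controls in each line. SERPINB8 gave 1.13 and SERPINB1 gave -1.14. SERPINB6 gave -0.24. The first 3 kept their call under every alternative run, while that of SERPINB6 was lost under 9. SERPINB4 also passed the threshold, at -5.30, but with 7 counts against none in HCT116 it entered the fit only through MCF10A and is not counted among the 4.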

How the results depend on the processing

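Over the members' log2 fold changes and the alternatives listed under the processing, 764 values kept direction and side of the threshold, 21 became called, 19 lost their call and 10 turned sign. The sign turned for SERPINB6 in MCF10A IR (0.066 with upper-quartile factors, 0.0036 with library totals alone, 0.0050 without MCF10A NIR replicate 2, 0.0139 without MCF10A IR replicate 1, and -0.076 at the other end of the range). In the response difference, leaving out a library gave ranges across 0 for SERPINB9 (-0.53, without MCF10A NIR replicate 2, to 2.69), SERPINB7 (-0.18, without HCT116 IR replicate 1, to 0.62) and SERPINB3 (-0.50, without HCT116 IR replicate 3, to 4.23). It turned for SERPINB5 in mixed NIR against HCT116 NIR (-0.098 to 0.024, the latter without mixed NIR replicate 3), and in mixed IR against HCT116 IR for SERPINB2 (-0.24, without HCT116 IR replicate 2, to 0.66) and SERPINB8 (-0.27 to 0.032, the latter without mixed IR replicate 3). None of these 10 was called. In mixed NIR against HCT116 NIR, the count of members called lower ran from 0 to 1 when a library was left out. In mixed IR against HCT116 IR, 1 member (SERPINB9) was called higher with library totals alone, DESeq2, halved counts and the replicate block, and 0 to 1 without single libraries. The count called lower was 2 (SERPINB7 added) with no filter, all 6 groups in 1 fit and the replicate block, and 1 to 2 without single libraries. Over all genes, mixed IR against HCT116 IR gave 871 higher and 596 lower calls, 1077 and 261 with all 6 groups in 1 fit (80.5% of calls higher, against 59.4%), 1263 and 957 with the replicate block, 567 and 299 without mixed IR replicate 2, and 586 and 328 without mixed IR replicate 3. Mixed NIR against HCT116 NIR gave 146 and 189, then 490 and 278 with all 6 groups, 319 and 397 with the block, 276 and 300 with DESeq2, 308 and 363 with no filter, 77 and 101 without HCT116 NIR replicate 2, 101 and 125 without HCT116 NIR replicate 3, and 68 and 77 without mixed NIR replicate 1. Residual r of same-numbered libraries ran from -0.228 to 0.25 over 15 pairs of groups, with means per pair from -0.101 to 0.144. It was positive throughout for HCT116 NIR with mixed NIR (0.0115 to 0.246) and for HCT116 IR with mixed IR (0.0835 to 0.25). A shared batch in these mixed comparisons was therefore not excluded. The labels do not say that a replicate number marks a batch, so the block is given only here. With the block, SERPINB7 was also called in the mixed cultures (adjusted p = 0.0302). The MCF10A share was 0.573% in NIR and 1.36% in IR with markers from 10 CPM, and 0.323% and 1.02% with markers under 0.5 CPM in the other line. The causes were not tested. Depth limits SERPINB2, SERPINB3, SERPINB4, SERPINB7 and SERPINB13 in HCT116 and mixed libraries, with at most 132 counts per group.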

Other observations

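SERPINB9P1, a pseudogene of SERPINB9, was counted at 2.17, 2.58 and 2.93 CPM in HCT116 NIR and at 4.63, 4.43 and 5.40 CPM in HCT116 IR, while SERPINB9 itself was lower in IR. HMSD, which lies next to SERPINB8, was at 1.90 CPM in HCT116 NIR and 0.571 CPM in HCT116 IR, while SERPINB8 was higher in IR. How reads fitting more than one of these genes were assigned is not given in the sources used here.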
